A study of Rattus norvegicus with 71 samples.

Results

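The 24 brain slices described here are the ends of a ranking of 43 RNA-seq libraries of 1 experimental batch (batch 2) by the expression of Tcf7l2, a transcription factor gene of thalamic neurons. They were chosen by this measured value: Tcf7l2 counts were divided by the column total and scaled for depth in this way to CPM, and the 12 highest slices (Tcf7l2-high) were set against the 12 lowest (Tcf7l2-low). They are 24 of the 71 libraries of the series, called thalamus-rich and thalamus-poor only as far as thalamic genes bear this out, and the other 19 slices of batch 2 lay between the ends. All animals were wild-type Sprague-Dawley rats at postnatal day 2 (PND2), and each library came from 1 coronal slice of 150 um labelled as holding hippocampus with cortical and subcortical structures. Dams of the exposed offspring had received, in Freund's adjuvant, synthetic peptides from the proteins listed in each maternal autoantibody (MARA-AB) label, and control dams received saline with adjuvant. The labels in batch 2 were Control (12 slices), CRMP1+CRMP2 (8), STIP1+NSE (8), CRMP1+GDA (6) and LDHA/B+CRMP1+STIP1 (9), from 20 litters. Batch 1, the study's other experimental batch, held 12 Control and 16 LDHA/B+CRMP1+STIP1 slices from 7 litters. Each library was 1 animal. The slices were cut at fixed positions of a slicing matrix, and the anatomical level reached in each brain is not given in the labels. Libraries of the 24 slices held about 25818200 to 36087000 counts, so that 1 CPM was 25.8 to 36.1 counts.

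The thalamus is the group of nuclei through which most sensory and motor signals reach the cortex. Its relay neurons are glutamatergic, use the vesicular transporter encoded by Slc17a6 and, around birth, share a set of patterning genes that includes Gbx2, Lhx9 and Lef1. Tcf7l2 and Lef1 encode members of the TCF/LEF family, the DNA-binding partners of beta-catenin in the canonical Wnt pathway, and Tcf7l2 is kept on in postmitotic thalamic and habenular neurons.

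Tcf7l2 itself is given only as the value that chose the slices. It lay between 506.4 and 675 CPM in the 12 high slices (median 531) and between 11.04 and 319 CPM in the 12 low slices (median 157). The first slice outside the high end had 506.1 CPM and the first outside the low end 332 CPM. The low end was uneven: 8 of its 12 slices were over 100 CPM, while the other 4 had 25.4, 15.1, 12.9 and 11.04 CPM. Those 4 were at or under 27.4 CPM, the highest value among the 28 slices of batch 1, whose median was 12.9 CPM. In the following comparisons a p-value measures whether a gene moved with the ranking gene across slices, not an effect of an exposure.

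Both ends held slices of every autoantibody label. The 12 high slices were 2 Control, 3 CRMP1+CRMP2, 3 STIP1+NSE, 3 CRMP1+GDA and 1 LDHA/B+CRMP1+STIP1, from 8 litters. The 12 low slices were 1 Control, 3 CRMP1+CRMP2, 2 STIP1+NSE, 1 CRMP1+GDA and 5 LDHA/B+CRMP1+STIP1, from 10 litters, and the 5 came from 4 litters. The largest difference in number was that of LDHA/B+CRMP1+STIP1, and 9 of the 12 Control slices lay between the ends. The labels did not differ between the ends beyond what permuting them gave (p = 0.454, adjusted p = 1, two-sided permutation test with 100000 resamples on the chi-square statistic). The high end had 10 exposed animals and the low end 11 (two-sided Fisher's exact test, p = 1), and the ends had 8 and 7 females (two-sided Fisher's exact test, p = 1). Adjusted values cover these 3 tests, and with so few slices per label only a large imbalance could have been detected. These tests took single slices as independent, although littermates share a dam and therefore a label. Both ends shared 1 litter: CRMP1+CRMP2 replicate 4 was in the high end and its littermate, replicate 3, in the low end.

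**Figure D1:**
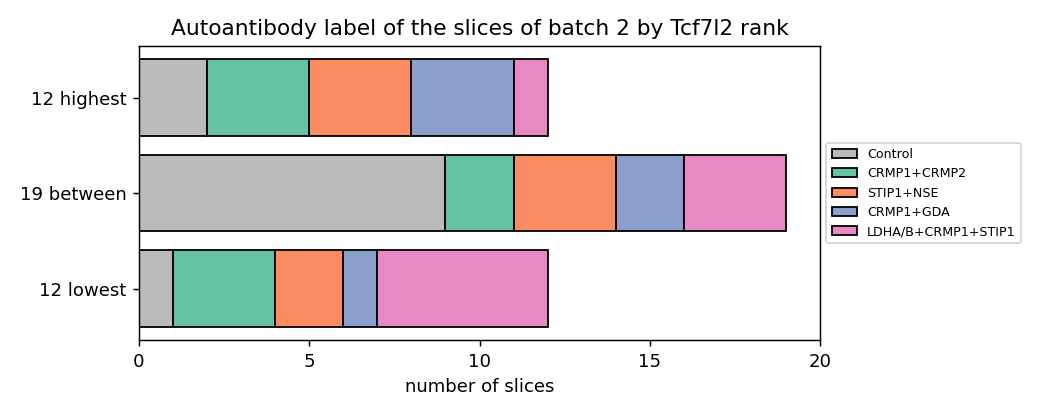
Number of slices of each autoantibody label (colours) among the 12 highest, the 19 middle and the 12 lowest slices of batch 2 ranked by Tcf7l2 CPM (horizontal axis, number of slices). Every label is in both ends, and 5 of the 12 lowest slices carry the label LDHA/B+CRMP1+STIP1 against 1 of the 12 highest.

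Some slices held RNA of tissue outside the labelled region. Summed CPM of Hox genes, which mark hindbrain and spinal cord, was 54.9, 220.4, 164 and 115 in 4 high slices (CRMP1+CRMP2 replicate 4, CRMP1+GDA replicate 4, LDHA/B+CRMP1+STIP1 replicate 6 and CRMP1+CRMP2 replicate 5), and at most 2.07 in the other 20. Crx, a photoreceptor and pineal transcription factor, exceeded 1 CPM in 2 high slices (4.60 in STIP1+NSE replicate 5 and 4.42 in CRMP1+CRMP2 replicate 6) and in 1 low slice (12.9 in CRMP1+CRMP2 replicate 2). The counts of each list of genes are therefore also given without these 7 slices, and without the 4 lowest slices, both chosen after seeing the data.

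Across 12183 genes tested, 1725 were higher (14.2%) and 2111 lower (17.3%) in the Tcf7l2-high slices, 31.5% in all, at an adjusted p under 0.1 (edgeR quasi-likelihood test, Benjamini-Hochberg adjustment, sex as covariate, n = 12 and 12). Of 18 thalamic genes 14 rose, of 21 cortical genes 13 fell and 1 rose, of 13 striatal genes 6 fell and 2 rose, and of 14 choroid plexus genes 13 fell. A gene with low counts in 1 end could enter the test through the other end alone: 285 genes had a median under 1 CPM in 1 end and not in the other, of which 62 were among those higher and 69 among those lower. Without the 7 slices with Hox or pineal RNA 448 genes were higher (3.72%) and 621 lower (5.16%) of 12027 tested, and without the 4 lowest slices 602 (4.96%) and 551 (4.54%) of 12126. With the choroid plexus level of each slice as a covariate 182 genes (1.49%) were higher and 152 (1.25%) lower. Leaving out the litter of LDHA/B+CRMP1+STIP1 replicates 1 and 2, both among the lowest slices, left 1074 higher and 1156 lower. Summed choroid plexus CPM was 353 to 1683 in the high slices (median 557) and 599 to 3736 in the low slices (median 2140), and its part in the other results was not tested beyond the fit with that covariate. In bulk tissue, fewer cells of a type and less RNA per cell cannot be told apart.

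Of the 18 thalamic neuron genes with a value, 14 rose in the Tcf7l2-high slices, 1 fell and 3 did not pass the test, with a median log2 fold change of 0.87 beside -0.02 over all genes tested. Lef1 (chr2:219667790-219762482, build rn7) was measured at 14.6 to 24.4 CPM in the high slices (median 18.7) and at 3.80 to 13.9 CPM in the low slices (median 6.69). The groups did not overlap, and Lef1 rose by 1.39 on the log2 scale (SE 0.20, adjusted p = 0.00011). Ntng1 (chr2:197463945-197826997), which encodes netrin-G1, a presynaptic adhesion molecule of thalamocortical axons, was at 68.9 to 117 CPM (median 94.6) against 13.7 to 56.2 CPM (median 32.2). Its log2 fold change was 1.53 (SE 0.20, adjusted p = 6.4e-05), again with no overlap. Synpo2, an actin-binding protein gene, and Foxp2, a forkhead factor of thalamic and other neurons, likewise stood higher in every high slice than in any low slice (log2 fold changes 1.93 and 1.05).

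Slc17a6 (chr1:101212489-101252543) was at 152.5 to 386 CPM in the high slices (median 265) and at 41.4 to 162 CPM in the low slices (median 111). Only the lowest high slice, CRMP1+GDA replicate 3, fell within the low range, and the gene rose by 1.28 (SE 0.18, adjusted p = 1.0e-04). That slice also had the lowest Ntng1 and Lef1 of the high end. Slitrk6, a neuronal transmembrane protein gene, rose by 1.86 and Plekhg1 by 0.70.

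Calb2 (chr19:38114435-38141438), which encodes the calcium buffer calretinin, separated the ends less. It was at 92.4 to 209 CPM in the high slices (median 153) and 48.0 to 160.3 CPM in the low slices (median 106), and the groups overlapped over most of this range. Calb2 rose by 0.56 (SE 0.15, adjusted p = 0.012), but its adjusted p was 0.16 without the slices with Hox or pineal RNA, 0.13 without the 4 lowest slices and 0.22 with the choroid plexus covariate. Its log2 fold change in these 3 fits was 0.49, 0.39 and 0.59. The adjusted p of Lef1 was 0.019, 0.0038 and 0.014 in the same fits.

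Among the transcription factor genes that pattern the thalamus, Lhx9 rose by 1.27 (adjusted p = 0.018) and Gbx2 by 1.25 (SE 0.53, adjusted p = 0.087). Gbx2 was at 14.5 to 25.6 CPM in all high slices but ranged from 0.152 to 23.1 CPM in the low slices, where 5 slices were under 3 CPM. Low slices therefore spanned from almost no Gbx2 to the level of the high slices. Slc6a4, the serotonin transporter gene, expressed transiently by sensory thalamic neurons and also made by raphe neurons, was at 8.87 to 26.3 CPM in the high slices. In the low slices it was at 0.885 to 10.2 CPM, except 38.4 CPM in CRMP1+CRMP2 replicate 3. Rgs16, Cacna1g and Zic1 rose by 0.44, 0.35 and 0.48. Gbx2 did not pass when no filter on low counts was used (adjusted p = 0.14 in edgeR). Nor did it pass without the Hox or pineal slices, without the 4 lowest slices or with the choroid plexus covariate (adjusted p = 0.37, 0.33 and 0.35). The log2 fold change of Gbx2 there was 1.06, 0.66 and 1.60. In the same 3 fits Lhx9 had an adjusted p of 0.19, 0.026 and 0.20 and log2 fold changes of 1.13, 0.75 and 1.39. Rgs16, Cacna1g and Zic1 did not pass in any of these 3 fits, but kept a positive log2 fold change in each. Zic4, Necab1 and Tnnt1 had log2 fold changes of 0.44, 0.10 and -0.48 and did not pass the test.

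Prkcd, a kinase gene that marks adult sensory relay neurons, went the other way from its list: it was at 15.2 to 23.7 CPM in the high slices and 19.4 to 36.9 CPM in the low slices and fell by 0.53 on the log2 scale (SE 0.11, adjusted p = 0.0021). Of the 18 genes, 8 were higher and 1 lower without the Hox or pineal slices, 9 and 1 without the 4 lowest slices, and 7 and 0 with the choroid plexus covariate.

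**Figure D2:**
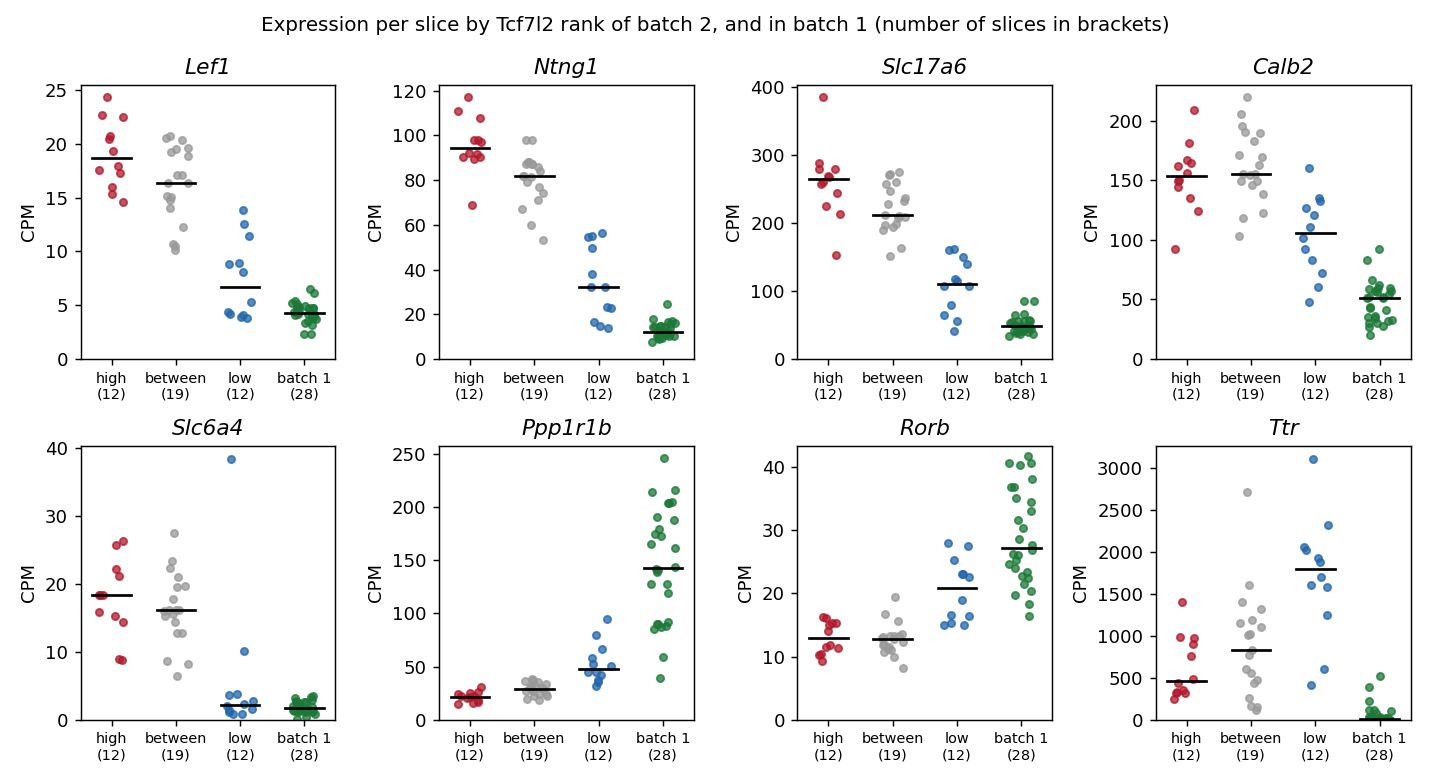
CPM (vertical axes, from 0) of 8 genes in each slice, for the 12 highest, 19 middle and 12 lowest slices of batch 2 by Tcf7l2 and the 28 slices of batch 1; points are slices and bars are medians. Lef1 and Ntng1 do not overlap between the high and low ends, Calb2 does, and Slc6a4 has 1 low slice at 38.4 CPM.

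Promoter sequences are shown for 3 genes that rose together with Tcf7l2 because the family of the ranking gene binds DNA. The core TCF/LEF motif, spelled TCAAAG, was searched for on both strands (read on the opposite strand it is CTTTGA) of the 300 bases from 250 before to 50 after each start site (RefSeq, build GRCr8, matched by symbol). Capitals mark the motif, which is in the Slc17a6 promoter (chr1:110348197-110348496, plus strand), starting 25 bases before the start site, and in neither of the windows of Lef1 (chr2:222340463-222340762, plus strand) and Ntng1 (chr2:200514982-200515281, minus strand).
Slc17a6: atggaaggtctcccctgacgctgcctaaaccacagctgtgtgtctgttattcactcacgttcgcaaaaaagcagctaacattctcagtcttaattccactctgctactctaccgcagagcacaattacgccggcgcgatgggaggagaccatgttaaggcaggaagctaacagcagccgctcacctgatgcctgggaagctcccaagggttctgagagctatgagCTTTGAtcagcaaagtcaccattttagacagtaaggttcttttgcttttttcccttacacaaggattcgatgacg
Lef1: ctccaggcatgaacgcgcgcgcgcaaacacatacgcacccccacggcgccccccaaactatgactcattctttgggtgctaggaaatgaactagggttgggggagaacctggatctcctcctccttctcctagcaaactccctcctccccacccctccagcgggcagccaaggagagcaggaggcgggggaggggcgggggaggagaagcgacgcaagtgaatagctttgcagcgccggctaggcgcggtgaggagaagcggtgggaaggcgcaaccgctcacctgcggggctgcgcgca
Ntng1: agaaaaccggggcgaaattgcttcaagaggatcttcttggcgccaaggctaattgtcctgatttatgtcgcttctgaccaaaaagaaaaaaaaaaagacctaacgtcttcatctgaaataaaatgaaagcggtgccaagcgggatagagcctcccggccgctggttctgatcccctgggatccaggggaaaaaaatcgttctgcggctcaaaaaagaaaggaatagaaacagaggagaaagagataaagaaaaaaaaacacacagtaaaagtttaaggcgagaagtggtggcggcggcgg
The motif was in 138 of 1278 promoters of genes that rose (10.8%), in 189 of 1595 of genes that fell (11.8%) and in 1077 of 9251 of all genes tested with a promoter entry (11.6%). It was in 2 of the 11 thalamic list genes with an entry. These shares are descriptions of the letters in one window and say nothing of binding.

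Of 14 genes of neuronal excitability tested, 7 rose and 1 fell, with a median log2 fold change of 0.24. Cacna1g, also counted among the thalamic genes, was 1 of the 7. In the fit without the Hox or pineal slices 3 rose and 0 fell in edgeR (6 and 1 at an unadjusted p under 0.05), without the 4 lowest slices 3 and 0 (5 and 0), and with the choroid plexus covariate 2 and 0 (3 and 0). Grm4, a metabotropic glutamate receptor gene, rose by 0.91 (adjusted p = 0.00049). Kcnd2, which encodes an A-type potassium channel, had a median of 150.0 CPM in the high and 118 CPM in the low slices and rose by 0.47. Kcnc1, a fast delayed rectifier gene, rose by 0.39, but had an adjusted p of 0.20, 0.12 and 0.40 in these 3 fits (log2 fold changes 0.26, 0.29 and 0.25). Of the 4 habenular genes tested, Nhlh2, a basic helix-loop-helix factor gene, and Chrna3, a nicotinic receptor subunit gene, rose, and 2 did not pass the test. In each of the 3 other fits 1 habenular gene rose, and the adjusted p of Chrna3 was 0.40, 0.18 and 0.21 (log2 fold changes 0.29, 0.41 and 0.60). Nhlh2 was at 26.1 to 37.6 CPM in every high slice and at 5.85 to 19.4 CPM in the low slices, and rose by 1.12 (SE 0.13, adjusted p = 4.0e-05).

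Among all genes tested, listed or not, 21 (0.172% of those tested) stood higher in every high slice than in any low slice, and 6 genes (0.0492%) lower, Tcf7l2 left out. Slc18a2, the vesicular monoamine transporter gene, also made transiently by developing thalamic neurons, was at 25.5 to 41.9 CPM against 6.06 to 22.5 CPM and rose by 1.52 (adjusted p = 4.0e-05). Kitlg, the ligand of the Kit receptor, was at 262 to 500.5 CPM against 79.8 to 246 CPM and rose by 1.27. Cbln2, which encodes a secreted synapse organizer, rose by 0.93, Zfp423, a zinc finger factor gene, by 0.99 and Cachd1, a calcium channel subunit-like gene, by 0.91. Shox2, a homeobox gene of thalamic neurons, was at 7.41 to 12.5 CPM against 0 to 6.68 CPM and rose by 1.83. Clgn, Lrfn5 and Pcsk2 had smaller folds (0.73, 0.31 and 0.33) with little spread among slices, and also did not overlap. Vgf and Gabra2 rose by 1.02 and 0.60 with 1 or more slices overlapping.

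Of 21 cortical neuron genes 13 fell, 1 rose and 7 did not pass the test, with a median log2 fold change of -0.30. Rorb, a layer 4 nuclear receptor gene, was at 9.36 to 16.3 CPM (median 12.9) in the high slices and 15.03 to 27.98 CPM (median 20.8) in the low slices and fell by 0.67 (SE 0.12, adjusted p = 7.1e-04). The 4 highest high slices overlapped the 3 lowest low slices. Rprm fell by 0.54, Cux2, an upper-layer homeobox gene, by 0.53 and Tbr1, a deep-layer T-box gene, by 0.42. This count depended on the slices used: 2 cortical genes fell and 0 rose in edgeR without the Hox or pineal slices (5 and 2 at an unadjusted p under 0.05), and 2 and 0 without the 4 lowest slices (8 and 0). Of 7 hippocampal genes 6 rose, among them Prox1, a dentate granule cell factor gene, by 1.07, Fibcd1 by 0.76 and Grik4, a kainate receptor gene, by 0.56 (adjusted p = 0.0076, 0.0075 and 0.0030 in edgeR). Without the Hox or pineal slices 3 of the 7 rose, without the 4 lowest slices 4 rose, and with the choroid plexus covariate 0 did in edgeR (4 at an unadjusted p under 0.05).

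Among striatal genes, Ppp1r1b (chr10:83347731-83356773), which encodes DARPP-32 of medium spiny neurons, was at 14.4 to 30.6 CPM in the high slices (median 21.8) and 31.9 to 94.4 CPM in the low slices (median 47.7). Every low slice was above every high slice, and the gene fell by 1.29 on the log2 scale (SE 0.16, adjusted p = 4.0e-05). Adora2a and Drd1, adenosine and dopamine receptor genes, fell by 1.38 and 0.64. Of 13 striatal genes 6 fell, 2 rose and 5 did not pass, and Ebf1 was among those that rose (1.07). Without the Hox or pineal slices 5 fell and 0 rose in edgeR (6 and 1 at an unadjusted p under 0.05), and without the 4 lowest slices 5 fell and 1 rose. With the choroid plexus covariate 2 fell and 1 rose. Gucy1a1 and Gucy1b1, subunits of the nitric oxide receptor guanylyl cyclase, fell by 0.77 and 0.49.

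Of 16 genes of GABAergic interneurons 4 fell and 2 rose, 2 and 1 without the Hox or pineal slices and 3 and 1 without the 4 lowest slices. Each of these counts of genes that fell includes Lhx8. Of all genes tested 17.3% fell and 14.2% rose in the main fit. The counts of 4 and 2 of 16 are near these shares and are not read as a result about interneurons. Npy, a neuropeptide gene, was at 16.7 to 59.6 CPM against 48.9 to 112 CPM and fell by 1.04 (adjusted p = 2.0e-04), and Lhx6, a factor gene of medial ganglionic eminence cells, fell by 0.44. Lhx8, a basal forebrain factor gene, was at 0 to 12.5 CPM in the high slices with a median of 0.33. It was at 0 to 24.3 CPM in the low slices with a median of 6.02. Only 2 high slices reached 1 CPM against 9 low slices, so that Lhx8 entered the test through the low end and its levels are given without the test. Reln, made by Cajal-Retzius cells and interneurons, rose by 0.53. Of 14 hypothalamic genes Crh fell (by 0.45, adjusted p = 0.062) and 13 did not pass. In the fits without the Hox or pineal slices and without the 4 lowest slices 0 passed in edgeR (0 at an unadjusted p under 0.05 in both).

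Of 17 midbrain genes, 12 passed the filter on low counts, and 6 of these had a median under 1 CPM in the low slices and entered through the high end alone. Of the other 6 midbrain genes 4 rose and 1 fell. Lmx1b, a factor gene of midbrain dopamine and hindbrain serotonin neurons, was at 0.072 to 10.9 CPM in the high slices (median 2.41) and 0 to 2.51 CPM in the low slices (median 0). Foxa1, a factor gene of midbrain floor plate, had medians of 1.90 and 0.168 CPM, and Barhl1, a factor gene of mammillary precursors, of 4.02 and 0.669 CPM. These 3 genes are among those that entered through the high end, and no test is given for them. Tal2 fell by 1.05. Summed midbrain CPM was 74.0 to 98.2 in the 4 Hox slices, 29.7 to 165 in the other 8 high slices and 21.9 to 75.3 in the low slices, where the highest value was again that of CRMP1+CRMP2 replicate 3. Without the Hox or pineal slices 9 midbrain genes were tested, of which 0 rose and 1 fell in edgeR (5 and 1 at an unadjusted p under 0.05). Of all 12, those that entered through the high end included, 4 rose and 1 fell without the 4 lowest slices, and 1 rose and 1 fell with the choroid plexus covariate. Slc6a5, the glycine transporter gene of hindbrain and spinal inhibitory neurons, had 26.3, 77.0, 52.3 and 39.9 CPM in the 4 Hox slices and at most 2.48 CPM in the other 20. Without the Hox or pineal slices its log2 fold change was 0.10 (adjusted p = 0.92).

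**Figure D3:**
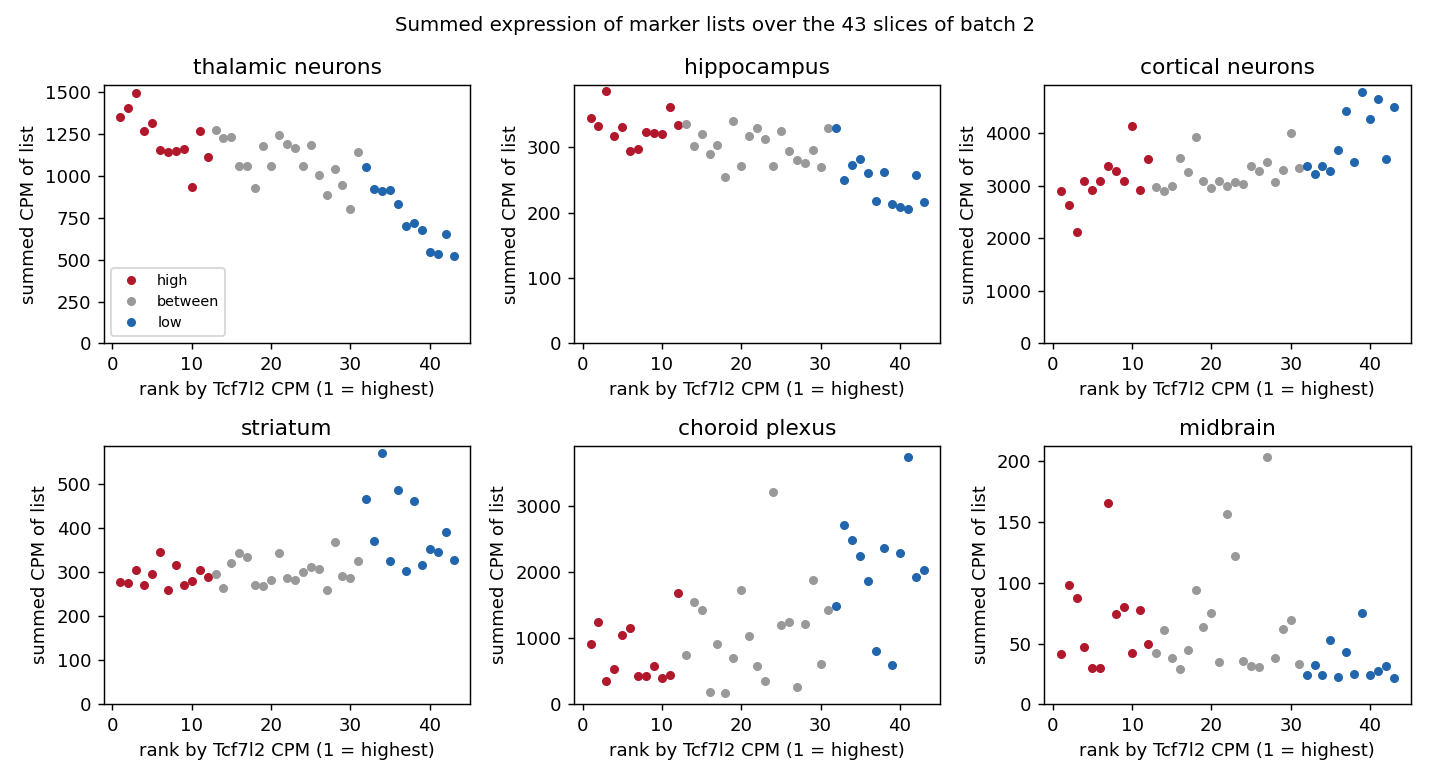
Summed CPM of 6 marker lists (vertical axes, from 0) in the 43 slices of batch 2 in order of Tcf7l2 CPM (horizontal axes, rank 1 is the highest); red, grey and blue points are the high, middle and low slices. Thalamic list sums are 936 to 1496 CPM in the high and 522 to 1053 CPM in the low slices, and choroid plexus sums are highest among low slices (up to 3736 CPM).

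Choroid plexus genes, which mark the secretory epithelium of the ventricles, fell. Of 14 tested, 13 fell and 0 rose, with a median log2 fold change of -1.42. Ttr, which encodes transthyretin, was at 243 to 1399 CPM (median 462) in the high slices and 416 to 3114 CPM (median 1794) in the low slices and fell by 1.45 (SE 0.30, adjusted p = 0.0019). The ranges overlapped, with 416 and 611 CPM in the low slices CRMP1+CRMP2 replicate 3 and LDHA/B+CRMP1+STIP1 replicate 9. Enpp2 (autotaxin), Folr1 (a folate receptor), Aqp1 (a water channel), Sostdc1 (a secreted antagonist), Kl (klotho) and Mfrp (a frizzled-related membrane protein) fell by 1.13, 1.87, 1.61, 1.38, 1.89 and 1.42. Without the Hox or pineal slices 12 of the 14 fell, and 12 fell without the 4 lowest slices.

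All 9 meningeal genes tested fell (median -0.80), among them Dcn by 0.94 and Foxc1 by 0.80, 9 of 11 vascular genes fell (Cldn5, the endothelial tight junction gene, by 0.52 and Rgs5, a pericyte gene, by 0.56), and 9 of 10 microglial genes fell (Tmem119 by 0.83 and C1qb by 0.65). Of 6 blood genes 5 fell, Hbb by 0.66, although globin genes are near-identical copies between which reads may be split. The count of genes that fell without the Hox or pineal slices was 6 meningeal, 3 vascular, 7 microglial and 1 blood gene. Without the 4 lowest slices 2 meningeal, 1 vascular, 3 microglial and 0 blood genes fell in edgeR (6, 4, 9 and 2 at an unadjusted p under 0.05). With the choroid plexus covariate 0 genes of these 4 lists fell in edgeR (0, 1, 1 and 0 at an unadjusted p under 0.05, in the same order). Of 14 radial glia and astrocyte genes 3 rose and 1 fell, with Pax6 at 0.61. Of 13 oligodendrocyte lineage genes 4 rose and 2 fell, with Nkx2-2 at 0.62, and of 11 cycling progenitor genes 2 rose, with Sox2 at 0.38. The counts of these 3 lists stand beside 14.2% higher and 17.3% lower of all genes tested. Of these 3 lists, 0 genes rose in edgeR without the Hox or pineal slices (2, 2 and 0 at an unadjusted p under 0.05), and 1, 0 and 0 rose without the 4 lowest slices (1, 2 and 0). With the choroid plexus covariate 1, 0 and 1 rose in edgeR (1, 2 and 8 at an unadjusted p under 0.05). The 2 pineal genes tested did not pass, and Hox genes did not pass the expression filter.

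**Figure D4:**
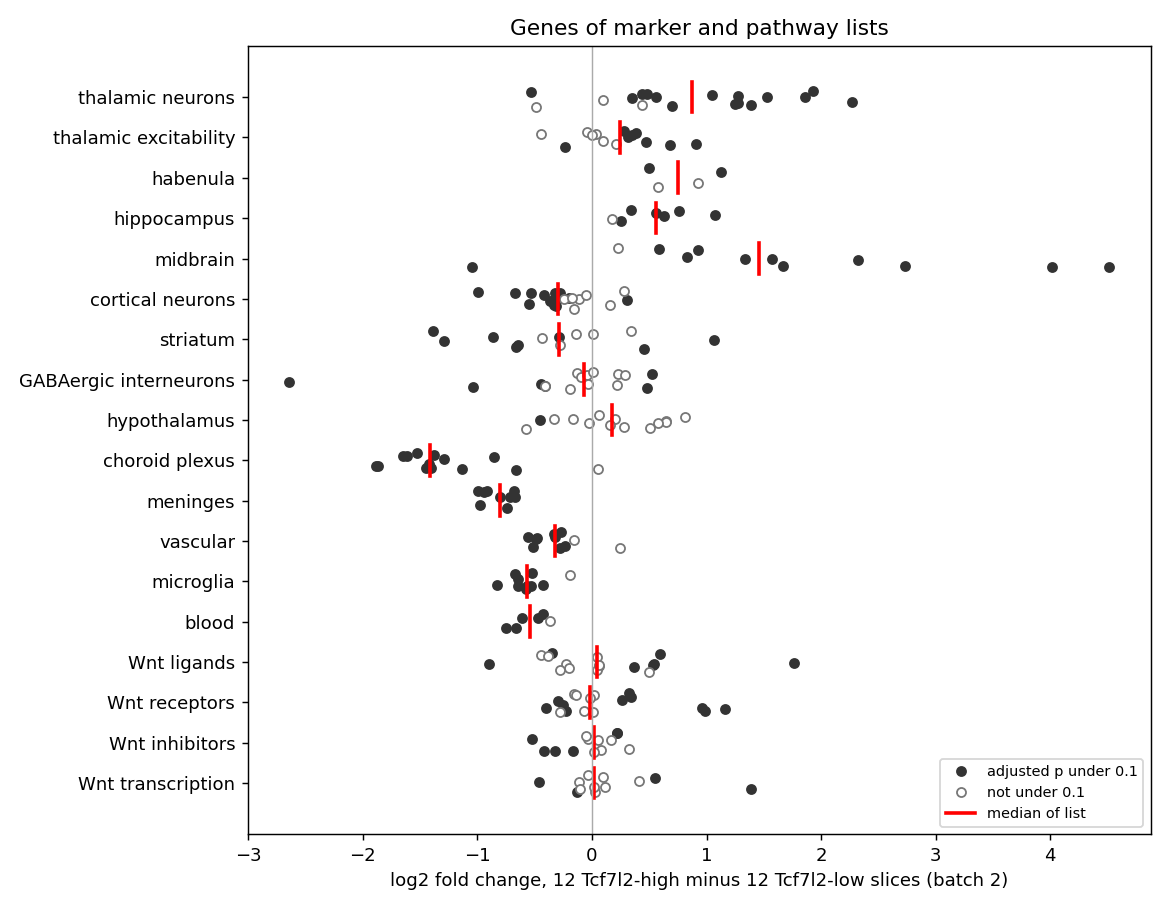
Log2 fold change (horizontal axis, high minus low) of each tested gene of 18 lists; filled points have an adjusted p under 0.1, open points do not, and red bars are list medians. Medians are 0.87 for thalamic neurons, 0.56 for hippocampus, -0.30 for cortical neurons, -1.42 for choroid plexus and between -0.02 and 0.05 for the 4 Wnt lists.

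The listed genes of the Wnt pathway, to which Tcf7l2 belongs, did not move in 1 direction. The counts below stand beside 14.2% higher and 17.3% lower of all genes tested. Of 17 ligands and R-spondins 5 rose and 2 fell. Wnt3 was at 9.34 to 14.2 CPM against 4.91 to 9.75 CPM and rose by 0.60 (adjusted p = 5.1e-04), and Wnt9b and Wnt4 rose by 1.77 and 0.53, while Wnt6 fell by 0.90. Of 17 receptors 6 rose and 4 fell. Among the frizzled receptor genes Fzd10 rose by 0.98, Fzd1 by 0.32 and Fzd5 by 1.16, and the R-spondin receptor genes Lgr5 and Lgr4 rose by 0.96 and 0.34. Of 13 inhibitors and feedback genes 2 rose and 4 fell. Sfrp1, a secreted Wnt antagonist gene, had a median of 57.9 CPM in the high and 78.2 CPM in the low slices and fell by 0.42 (SE 0.07, adjusted p = 3.3e-04), Nkd2, an intracellular antagonist gene, fell by 0.32 and Dkk2 by 0.53. Axin2, the feedback scaffold gene that beta-catenin signalling switches on, rose by 0.21 (adjusted p = 0.019) and Gsk3b, the kinase of the destruction complex, by 0.22. Of 12 nuclear genes 2 rose, Lef1 and Tle2, and 2 fell, the co-repressor gene Tle3 (by 0.46) and the co-activator gene Pygo2 (by 0.13). Lef1 was also counted among the thalamic genes. Among the Wnt genes, 2 ligands, 2 receptors, 0 inhibitors and 1 nuclear gene rose in edgeR without the Hox or pineal slices (3, 5, 3 and 2 at an unadjusted p under 0.05), and 2, 3, 3 and 1 fell. Without the 4 lowest slices 2, 5, 0 and 1 rose (3, 6, 2 and 3 at an unadjusted p under 0.05), and 0, 1, 2 and 1 fell (1, 3, 3 and 2). With the choroid plexus covariate 1, 3, 0 and 1 rose in edgeR (4, 6, 2 and 1 at an unadjusted p under 0.05). In that fit 0, 0, 1 and 1 fell (1, 2, 2 and 4).

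Of 12 genes that the study singled out on these samples, 2 rose and 4 fell, beside 31.5% of all genes tested that passed in either direction: Calb2 and Vsnl1 (0.56 and 0.30), and Mfrp, Efna2, Sav1 and Grin3b (-1.42, -0.26, -0.27 and -0.36). Mfrp was also counted among the choroid plexus genes, and Calb2 among the thalamic genes. Of these 12, 0 rose and 2 fell without the Hox or pineal slices (2 and 3 at an unadjusted p under 0.05 in edgeR), without the 4 lowest slices 0 and 3 (2 and 3), and with the choroid plexus covariate 0 and 0 (1 and 3). Of the 7 genes of the target antigens, Eno2 rose by 0.18, Crmp1 fell by 0.17 and Ldha by 0.20, and 4 did not pass, so that 3 of 7 passed beside 31.5% of all genes. In each of the 3 other fits 0 of the 7 passed in edgeR (0, 0 and 1 at an unadjusted p under 0.05). With the autoantibody label added to the model, 12 of the 18 thalamic genes rose and 1 fell.

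The 19 slices between the ends were placed there by the same ranking but did not enter the comparison of the ends. There, log2 Tcf7l2 CPM was fitted as a continuous term over values from 332 to 506.1 CPM, a choice made after seeing the data, so that the slopes describe the same relation to the ranking gene and are no independent support. In edgeR 0 of 12109 genes passed the adjusted threshold (0%), and 565 had an unadjusted p under 0.05, 285 with a positive slope (2.35%) and 280 with a negative one (2.31%). Of the 18 thalamic genes 8 had an unadjusted p under 0.05, all with a positive slope, and 16 of the 18 slopes were positive. The slope of Foxp2 was 0.98 (SE 0.20, unadjusted p = 6.7e-05 in edgeR), that of Ntng1 0.77 and that of Slc17a6 0.77, each the log2 change per doubling of Tcf7l2. The slope of Lef1 was 0.76 (unadjusted p = 0.04997) and that of Calb2 0.05 (SE 0.35, unadjusted p = 0.88). The median slopes were 0.77 for thalamic, 0.05 for hippocampal, -0.22 for cortical, -0.19 for striatal and -1.03 for choroid plexus genes, beside 0.00 over all genes, and no choroid plexus gene passed an unadjusted p under 0.05 (edgeR).

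Batch 1 was ranked in the same way, 8 slices against 8 of 28. Tcf7l2 there reached at least 14.8 CPM in the high end (first slice outside 14.6) and at most 7.66 CPM in the low end (first slice outside 7.77). Of 11708 genes tested 718 were higher (6.13%) and 498 lower (4.25%) in edgeR, and 929 and 281 with no normalization factors. Leaving out 1 litter at a time gave 313 to 743 higher and 185 to 501 lower, and a fit within litters, 4 of which had slices in both ends, gave 236 and 122. The high end held 2 Control and 6 exposed slices and 1 female, the low end 4 and 4 with 5 females. The medians of Lef1, Slc17a6 and Calb2 over all 28 slices (4.27, 48.2 and 51.1 CPM) were below those of both ends of batch 2. Their summed striatal level was higher (median 997 CPM against 284 and 361) and their summed choroid plexus level lower (median 54.7 CPM against 557 and 2140). The levels of the batches are set side by side without a test.

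Of 17 thalamic genes tested in batch 1, 6 rose and 1 fell. Gbx2 was at 5.23 ± 1.95 CPM (SD, n = 8) against 0.27 ± 0.19 CPM. All 8 high slices and 0 low slices reached 1 CPM, so that Gbx2 entered the test through the high end and no test is given for it. In all, 3 of the 17 genes (Gbx2, Lhx9 and Slitrk6) had a median under 1 CPM in the low end alone, and 2 of these are among the 6. Foxp2 rose by 0.77 (adjusted p = 3.1e-04 in edgeR). Ntng1 rose by 0.54 (adjusted p = 0.062), while Lef1 had a log2 fold change of 0.14 (adjusted p = 0.75) and Slc17a6 0.42 (adjusted p = 0.12). Of 13 striatal genes 9 rose and 0 fell. Ebf1 rose in both batches (interaction 0.0062, adjusted p = 0.99 in edgeR), while Ppp1r1b, Adora2a and Drd1 had interactions of -2.03, -2.61 and -1.51, with Drd1 at 47.9 ± 8.31 against 24.3 ± 6.33 CPM. Lhx8 was at 19.1 ± 7.26 against 0.99 ± 1.15 CPM, and it too entered through the high end. Of 21 cortical genes 11 fell and 1 rose, with Rorb at -0.55. Of 4 choroid plexus genes tested 0 passed in edgeR (1 at an unadjusted p under 0.05). Of 6 blood genes 5 rose, of 16 GABAergic interneuron genes 9 rose, Lhx8 included, and 0 fell, and of 9 meningeal genes 1 rose (7 at an unadjusted p under 0.05, all 9 with a positive sign). No microglial gene passed in edgeR, although all 10 had a positive sign (3 at an unadjusted p under 0.05).

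The difference between the batches was tested as an interaction of end and batch over the slices of both pairs of ends. Of 12313 genes, 1219 (9.9%) had an interaction in edgeR. Lef1 rose by 1.36 more in batch 2 (adjusted p = 0.0069) and Nhlh2 by 1.21 more, while the difference of Ppp1r1b was -2.03. Foxp2 had no detectable interaction (0.30, adjusted p = 0.44). Levels of Tcf7l2 did not overlap between the batches apart from the 4 lowest slices of batch 2, and batch cannot be told apart from this difference in level.

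**Figure D5:**
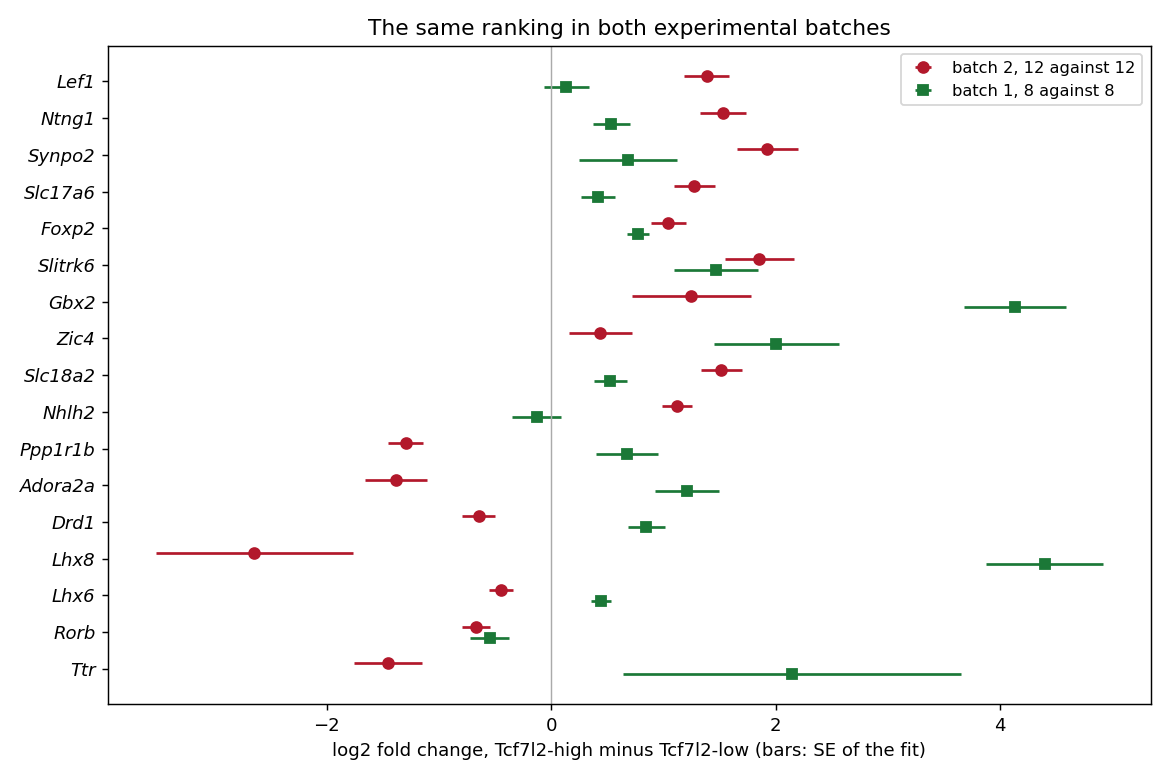
Log2 fold change (horizontal axis, Tcf7l2-high minus Tcf7l2-low, bars are SE of the fit) of 17 genes in batch 2 (red circles, 12 against 12) and batch 1 (green squares, 8 against 8). Ppp1r1b, Adora2a, Drd1, Lhx8 and Lhx6 lie on opposite sides of 0 in the batches, and Rorb on the same side. Gbx2 has a log2 fold change of 1.25 in batch 2 and 4.13 in batch 1. In batch 1 Gbx2 and Lhx8 entered the test through the high end alone. Slitrk6 also had a median under 1 CPM in the low end of batch 1 alone, where 7 high and 4 low slices reached 1 CPM. In batch 2 Lhx8 entered through the low end alone.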

How the data were processed

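RNA was extracted from 1 coronal slice per PND2 rat brain, and poly-A libraries were sequenced as paired-end reads. The authors aligned reads with STAR 2.5.4b and counted them per gene with featureCounts (build rn7), and deposited raw counts per gene with exon lengths. How reads matching several genes were counted is not given in the sources used here. Of the deposited counts from 1 to 9, 74.5% were even, and counts were therefore also halved as an alternative. No column lacked a sample (0). Batches follow the sample titles and the study's text, litters the dam labels. The members and gene lists were chosen with earlier results of these data known.

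Genes with at least 1 CPM in 8 or more slices were kept, TMM factors computed, and ends compared with edgeR 4.0.16 (robust quasi-likelihood test, sex as covariate) in R 4.3.3 at a Benjamini-Hochberg adjusted p under 0.1. Slices were taken as replicates, although some were littermates, and litter was a random effect in an alternative and, in batch 1, a fixed block in another. Alternatives used limma 3.58.1, DESeq2 1.42.0 and sva 3.50.0. The whole series held 24880200 to 36235000 counts per library. The scripts were tested on simulated data with 200 changed genes and independent slices. There 27 of 202 calls were false in batch 2 and 19 of 165 in batch 1. This setting held no littermates and far fewer changed genes than the genes called here in batch 2.

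Genes are named from the thalamic list, the 5 with the smallest p of each other list, the 12 with the smallest p and the 12 with the largest fold in each direction (at least 5 CPM in the higher group), and genes the study singled out. Of 351 list entries 19 were not analysed here, and some genes that meet the rule are not reported here. Promoters are from RefSeq (GRCr8), and their coordinates are not those of rn7.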

Additional observations from a re-analysis of the deposited data

Results flagged for a closer look

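In the ends of batch 1, 7 of 54 groups held 1 slice far from the others, where chance alone marks about 1 in 20 groups. These slices had 82.7 CPM of Calb2, 16.9 CPM of Ntng1, 9.19 CPM of Zic4, 3.79 CPM of Lhx8 and 103 CPM of Ttr in the low end, and 24.8 CPM of Ntng1 and 123 CPM of Foxp2 in the high end. The rate of 1 in 20 holds for independent, normally distributed groups, whereas these groups are genes measured on the same slices. An excess over that rate can therefore not be read from this count.

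The difference between high and low slices itself differed between batches for 1219 genes (edgeR interaction term, adjusted p under 0.1), and for 17 of the 27 genes read for it. On the log2 scale, batch 2 minus batch 1, thalamic and habenular genes were at 1.36 for Lef1, 1.05 for Ntng1, 1.70 for Synpo2, 0.87 for Slc17a6, 0.85 for Plekhg1, 3.35 for Slc6a4, 0.52 for Necab1 and 1.21 for Nhlh2. The value was 1.06 for Slc18a2. The patterning genes Gbx2 and Zic4 were at -2.87 and -1.52. Striatal and basal forebrain genes were at -2.03 for Ppp1r1b, -2.61 for Adora2a, -1.51 for Drd1, -6.45 for Lhx8 and -0.86 for Lhx6, and Ttr was at -4.22. Gbx2 and Lhx8 reached 1 CPM in 8 high slices of batch 1 and in 0 and 1 of its low slices, so that they entered the test there through the high end alone. In batch 2 Lhx8 reached 1 CPM in 2 high and 9 low slices and entered through the low end alone. The interactions of these 2 genes, counted among the 17, are given as flagged values and not as results.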

How the results depend on the processing

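No paired analysis was possible because replicate numbers only name the samples in accession order, but littermates are known. With litter as a random effect (limma) 1523 and 1765 genes were higher and lower in batch 2 and 748 and 523 in batch 1. With litter as a fixed block, chosen after seeing the data, 236 and 122 were in batch 1, where 4 litters had slices in both ends. In batch 2 only 1 litter did, and this fit was not run. In batch 2, genes higher and lower numbered 182 and 152 with the choroid plexus covariate, 448 and 621 without Hox or pineal slices, 602 and 551 without the 4 lowest slices and 0 and 0 in the 19 slices between the ends (565 at an unadjusted p under 0.05 in edgeR), the last 3 of these settings chosen after seeing the data. With 6 against 6 slices 1286 were lower. Leaving out 1 litter at a time gave 1074 to 2038 higher and 1156 to 2419 lower. Both lowest values came without the litter of LDHA/B+CRMP1+STIP1 replicates 1 and 2. In batch 1, the label in the model gave 1082 and 823, a continuous term over all slices 1233 and 969, no normalization factors 929 and 281, no sex term 864 lower and 6 against 6 slices 256 lower. Leaving out 1 litter gave 313 to 743 higher and 185 to 501 lower. Without the litter of dam IgG1 375 and 302 were left, without RNA2 313 and 185, without RNA1 449 and 268, and without FcRn4 366 and 190. The causes were not tested.

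Of the 99 genes followed, 96 passed the test, beside 31.5% of all genes tested. Many of them were named by their p or fold in this same fit, so that passing was largely fixed in advance. The 96 include Lhx8, Lmx1b, Foxa1, Barhl1 and Slc6a5, which had a median under 1 CPM in 1 end alone. Of the 96, 84 passed with every litter left out. With the choroid plexus covariate 57 of the 99 kept their direction but no longer passed. Without the Hox or pineal slices this held for 36 of 97 genes, and without the lowest slices for 27 of 99. Without the lowest slices 1 gene passed that had not passed before, and 0 did so in each of the other fits just named. Directions turned for Necab1 with 6 against 6 slices (-0.015) and the continuous term (-0.0025), for Tnnt1 with the continuous term (0.078) and the covariate (0.34) and for Ttr with the covariate (0.034). Ttr is itself 1 of the genes from which the choroid plexus covariate was computed, so its value in that fit is no result. In the 19 middle slices they turned for Lhx8 (1.81), Lhx6 (0.15), Rorb (0.28), Chrna3 (-0.21), Tal2 (0.36), Slc6a5 (-0.35), Fibcd1 (-0.55), Cux2 (0.11), Reln (-0.17), Fzd1 (-0.38) and Crmp1 (0.0070). Under DESeq2, median-ratio size factors, halved counts and the TMM ranking no followed gene changed its call or direction. Genes under 1 CPM were not tested.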
